A study of Homo sapiens with 48 samples.

Results

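GPR50, the gene of the melatonin-related receptor, was followed as 1 gene of the 60610 listed in the count table, across control, AII, EGF and AII + EGF at 6 h and 24 h. It was chosen by its large response to EGF at 6 h, to compare its responses to both stimuli, so all values that use 6 h libraries are given as a description with no test of GPR50. Tests of GPR50 are reported only for comparisons among the 24 h libraries. All libraries came from 1 limited-dilution clone of HEK293, a human embryonic kidney line, that stably carries an expression plasmid of AT1R, a receptor of the peptide hormone angiotensin II (AII), and that had been selected with puromycin in the presence of the AT1R blocker losartan. The cells were moved to medium without serum and then received no stimulus (control), 1 nM AII, 10 µg/L EGF or both (AII + EGF) for 6 h or 24 h. Poly(A) RNA was sequenced and fragments were counted per gene. Labels gave 6 libraries to each of the 8 groups, 48 in all, and did not say whether libraries of a group came from separate cultures, so the p-values measure the spread between these libraries, which may be technical.

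GPR50 is a G protein-coupled receptor that resembles the melatonin receptors MT1 and MT2 but does not bind melatonin, and no ligand of it is established. It carries an unusually long intracellular tail, and it is known from pituitary and hypothalamus and as a binding partner of MT1 and of the type I TGF-beta receptor. EGF acts through the receptor tyrosine kinase EGFR on the Ras-ERK pathway. AII acts through AT1R, which couples mainly to Gq and calcium. The comparison of both stimuli addresses whether a receptor tyrosine kinase and a G protein-coupled receptor reach the same gene, alone and jointly.

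The gene (ENSG00000102195) lies on chromosome X at chrX:151176584-151182856 (GRCh38, RefSeq gene table), a span of 6273 bases. The non-coding gene GPR50-AS1 on chromosome X, chrX:151175198-151177836, overlaps it by 1253 bases on the opposite strand. GPR50-AS1 had between 0 and 6 counts in the libraries used. Whether reads were counted by strand is not given in the sources used here, so reads in the shared stretch cannot be told apart. The 250 bases before the annotated start (chrX:151176334-151176583, plus strand, GRCh38.p14, RefSeq promoter table) are shown because the RNA level of this gene is the quantity that moved. Capitals mark every match, on either strand, to 4 of the motifs searched, namely the ETS core GGAA, its longer form GGAAGT, the CCAAT box CCAAT and the GC box GGGCGG.
GPR50 promoter: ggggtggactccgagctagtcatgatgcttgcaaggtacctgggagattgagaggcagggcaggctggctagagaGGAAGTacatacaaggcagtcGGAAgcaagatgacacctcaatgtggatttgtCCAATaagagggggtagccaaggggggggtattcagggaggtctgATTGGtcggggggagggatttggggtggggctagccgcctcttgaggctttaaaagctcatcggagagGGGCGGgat
The window held 56.8% G and C, beside a median of 58% over the promoters in the table. GGAA, the core bound by ETS factors such as ETV4 and ETV5, occurred 2 times, starting 175 and 154 bases before the start. The first of these lies inside the GGAAGT match. GGAA occurred in 92.8% of 27305 promoters of the same length and GGAAGT in 19.9%. CCAAT occurred 2 times, starting 122 bases before the start and, on the minus strand, 77 bases before it (33% of promoters), and GGGCGG 1 time, starting 9 bases before it (42.3%). The AP-1 motif TGANTCA (6.6% of promoters), the CRE TGACGTCA (1.77%), the EGR motif GCGNGGGCG (8.25%), the CArG box (1.14%) and TATAAA (11.1%) had no match in these letters. A match describes the letters and not a site in use.

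Among all 1128 possible pairs of libraries, 4 were closer to each other than 2 separate draws of reads would be, with a chi-square per degree of freedom of 0.397 to 0.505. The closest other pair within a group reached 2.02. These 8 libraries were left out, since 3 of the pairs join libraries labelled as different groups. A further 2 libraries were left out because their labels were in doubt. A scale over 432 genes without GPR50 was used, where AII 6 h libraries lie near 0 and AII + EGF 6 h libraries near 1. On it, replicate 6 of the libraries labelled AII 6 h had a position of 0.84. Replicate 6 of those labelled AII + EGF 6 h had one of -0.03. Replicate numbers follow the order of deposition and are not in the labels. The 38 libraries used held 17.8 to 30 M counts, on average 22.3 ± 3.02 M (SD, n = 38). HEK293 markers such as VIM, NEFL, NEFM and LIN28B were present in every library, while the leukocyte gene PTPRC, the fibroblast gene COL1A2 and the pituitary gene GH1 had at most 2 counts. The endothelial gene PECAM1 had at most 8 counts, the hepatocyte gene ALB at most 9 and the pituitary gene POMC at most 14. The HEK293 marker PAX2 was low as well, with 6 to 80 counts. AGTR1, which encodes AT1R, had at least 82721 counts in every library, and EGFR at least 315.

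GPR50 RNA was low in control cells, somewhat higher with AII and much higher with EGF at 6 h, and highest with both. In such bulk RNA, more cells that express a gene and more RNA per cell cannot be told apart. Levels are given in CPM, the count of the gene relative to the size of its library, after scaling with TMM factors, which correct for differences in library composition. In control at 6 h the 4 libraries had 2.45, 1.96, 1.18 and 1.23 CPM, from 46, 43, 22 and 28 counts. With AII at 6 h the 5 libraries had 4.68, 4.19, 5.66, 6.11 and 3.64 CPM, from 78 to 121 counts. With EGF at 6 h the 3 libraries had 27.3, 25.6 and 23.4 CPM, from 710, 675 and 614 counts. Each AII library lay above each control library, and each EGF library above each AII library. With AII + EGF at 6 h the 4 libraries had 51.4, 46.6, 47.3 and 38.6 CPM, from 1054, 871, 884 and 748 counts, all above the EGF libraries.

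At 24 h GPR50 was near or below the 6 h control level without EGF and slightly above it with EGF. The 6 control libraries had 0.924, 0.715, 0.886, 0.744, 1.57 and 0.76 CPM, from 16 to 36 counts. The 5 AII libraries had 1.05, 1.11, 0.453, 0.912 and 0.985 CPM, from 10 to 28 counts. Control and AII libraries overlapped. The 5 EGF libraries had 2.89, 3.09, 1.79, 3.11 and 1.79 CPM, from 42 to 67 counts, and lay above every control and every AII library of that time. The 6 AII + EGF libraries had 3.37, 3.12, 3.53, 3.08, 2.47 and 1.08 CPM, from 30 to 73 counts, and the lowest of these fell among the control and AII libraries. At such counts the error of counting is wide. The 95% Poisson interval of the lowest library, 10 counts under AII at 24 h, ran from 4.8 to 18.4 counts, and that of the highest, 1054 counts under AII + EGF at 6 h, from 991 to 1120.

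**Figure D1:**
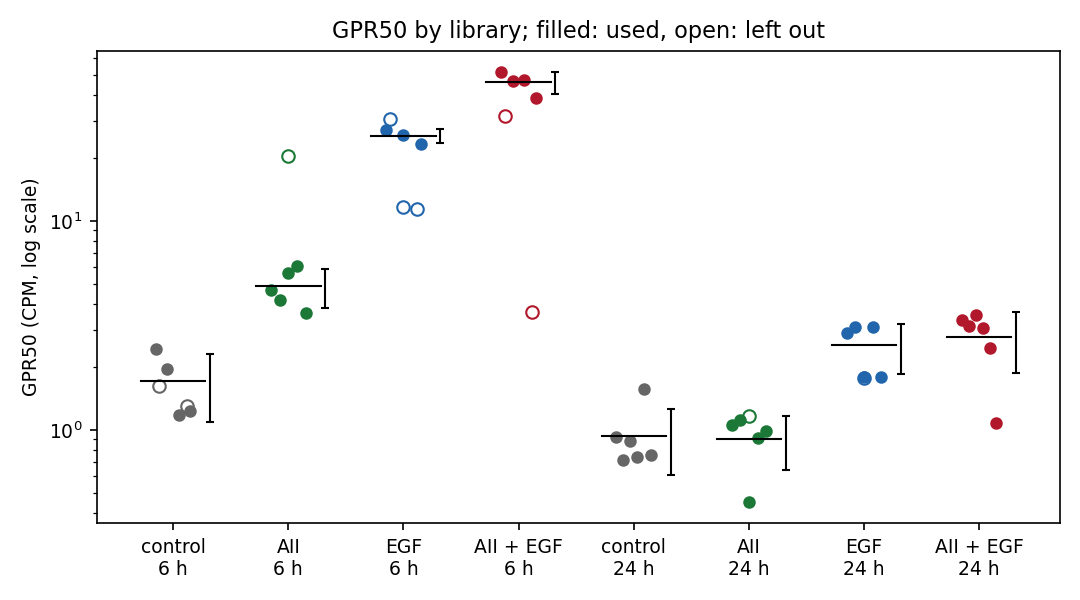
GPR50 level in CPM on a log axis, 1 point per library, for the 8 groups of treatment and time. Filled points are the 38 libraries used, with the group mean (line) and SD (bar), and open points are the 10 left out. At 6 h the used libraries rise from 1.18 to 2.45 CPM in control to 38.6 to 51.4 CPM under AII + EGF, and at 24 h all used libraries lie between 0.453 and 3.53 CPM.

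In the order of group means, AII + EGF at 6 h came first with 46 ± 5.35 CPM (SD, n = 4), then EGF at 6 h with 25.5 ± 1.94 CPM (n = 3) and AII at 6 h with 4.86 ± 1.02 CPM (n = 5). AII + EGF at 24 h followed with 2.77 ± 0.906 CPM (n = 6), EGF at 24 h with 2.54 ± 0.685 CPM (n = 5) and control at 6 h with 1.70 ± 0.61 CPM (n = 4). Control at 24 h had 0.934 ± 0.324 CPM (n = 6) and AII at 24 h 0.902 ± 0.262 CPM (n = 5). The first 3 groups did not overlap with each other or with the group after them. From AII + EGF at 24 h downward, neighbours in the order overlapped.

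At 6 h GPR50 was higher with either stimulus, and far more so with EGF. The log2 change against control was 3.90 ± 0.277 (SE) with EGF, a 14.9-fold difference that ranked 12 among the 19626 genes tested. With AII it was 1.51 ± 0.261, or 2.85-fold, and with AII + EGF 4.75 ± 0.274, or 27-fold. Directly compared, EGF exceeded AII by 2.39 ± 0.234 on the log2 scale, or 5.25-fold. AII + EGF exceeded EGF by 0.85 ± 0.243, or 1.81-fold. The contrasts with control share the control libraries, and of all genes tested 1.94% were called with EGF, 0.469% with AII and 12% with AII + EGF, where a gene was called if its adjusted p was below 0.01, its fold difference was 1.5 or more and the higher group averaged over 5 CPM. With all 48 libraries the log2 change with AII was 2.2 and that of EGF over AII 1.54. These libraries include replicate 6 of those labelled AII 6 h, with 20.4 CPM.

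On the linear scale the joint response at 6 h was larger than the sum of the separate ones. EGF added 23.7 CPM to control and AII 3.15 CPM, a sum of 26.9 CPM, while AII + EGF added 44.3 CPM. The excess was 17.4 ± 2.95 CPM (SE). On the log2 scale the interaction was -0.65 ± 0.351 with a 95% interval from -1.37 to 0.0619. With all 48 libraries the linear excess at 6 h was 8.74 ± 8.23 CPM. At 24 h it was 0.27 ± 0.512 CPM in the libraries used.

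EGF on top of AII was also compared at 6 h, in libraries that hold neither control nor EGF alone. Their values were known when GPR50 was chosen, so this comparison is a description and no separate support. GPR50 was higher in each of the 4 AII + EGF libraries than in each of the 5 AII libraries, with a log2 difference of 3.25 ± 0.227 (9.49-fold). In this comparison 4.21% of all genes tested were called higher. AGTR1, the transfected receptor, was itself higher by 0.75 ± 0.162 on the log2 scale (edgeR adjusted p = 0.000508), and EGFR by 0.82 ± 0.12 (adjusted p = 1.57e-06). Their part in the GPR50 difference was not tested. Over all alternatives the GPR50 difference lay between 2.28 and 3.29, the low end being with libraries that include the 2 of doubtful label.

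At 24 h GPR50 was still higher with EGF, alone or with AII, at a level far below that of 6 h. EGF libraries exceeded control by 1.43 ± 0.252 on the log2 scale (2.69-fold, edgeR quasi-likelihood test, adjusted p = 0.00135), and all 5 lay above all 6 controls (two-sided exact permutation test on log2(CPM + 1), p = 0.00433). An adjusted p under 0.01 was reached by 0.586% of the genes tested in this comparison. AII + EGF exceeded control by 1.55 ± 0.241 (2.93-fold, adjusted p = 1.32e-05, exact permutation p = 0.00433), where 10.4% of genes passed. It exceeded AII by 1.59 ± 0.258 (3.01-fold, adjusted p = 7.88e-05, exact permutation p = 0.00649), where 4.64% passed. None of these differences counts as a call, because GPR50 stayed under 5 CPM in all 24 h groups. With all 48 libraries the differences were 1.34, 1.56 and 1.53, and their adjusted p rose to 0.184, 0.0109 and 0.0174. With only control and EGF 24 h libraries in the fit, the difference of EGF from control was 1.42 with an adjusted p of 0.059.

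AII alone left no detectable difference at 24 h. The log2 change against control was -0.04 ± 0.284, with a 95% interval from -0.619 to 0.543 (adjusted p = 1, exact permutation p = 0.877). In this comparison 0% of genes were called by edgeR and 0 by DESeq2. An unadjusted p under 0.05 was reached by 343 genes in edgeR, or 1.75% of those tested. This is less than the share that a threshold of 0.05 gives with no difference at all. AII + EGF differed from EGF at 24 h by 0.12 ± 0.228, with an interval from -0.342 to 0.59 (adjusted p = 0.894, exact permutation p = 0.784), where 0.168% of genes passed. The interaction at 24 h was 0.16 ± 0.365, with an interval from -0.584 to 0.907 (adjusted p = 0.998). Changes of GPR50 with AII within these intervals were not detectable with these libraries.

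The responses to EGF and AII at 24 h were compared directly, without the shared control. EGF exceeded AII by 1.47 ± 0.268 on the log2 scale (2.77-fold, adjusted p = 0.00691), with all 5 EGF libraries above all 5 AII libraries and an exact permutation p of 0.00794, the smallest this design allows. An adjusted p under 0.01 was reached by 11 genes, or 0.056% of those tested. Besides GPR50 these were, as log2 differences, the ETS factor genes ETV4 (5.44), ETV5 (3.71) and ETV1 (2.77), the early growth response genes EGR1 (1.71) and EGR3 (1.28), and SEC24D (0.69), ANXA1 (0.61) and CEBPG (0.46), all higher with EGF, while AC015712-2 (-0.70) and FRMPD2 (-1.25) were lower. ETV4, ETV5 and EGR1, like GPR50, had been chosen with earlier results of these data known. The others were named after their values were seen. The adjusted p of GPR50 passed 0.01 when EGF replicate 4 or 6 was left out, and rose above it without EGF replicate 1 (log2 difference 1.41), 3 (1.38) or 5 (1.39) and without AII replicate 1, 2, 3, 5 or 6 (1.30 to 1.56), up to 0.0356. With only the EGF and AII 24 h libraries in the fit it was 0.225, and with all 48 libraries 0.589 at a difference of 1.31.

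**Figure D2:**
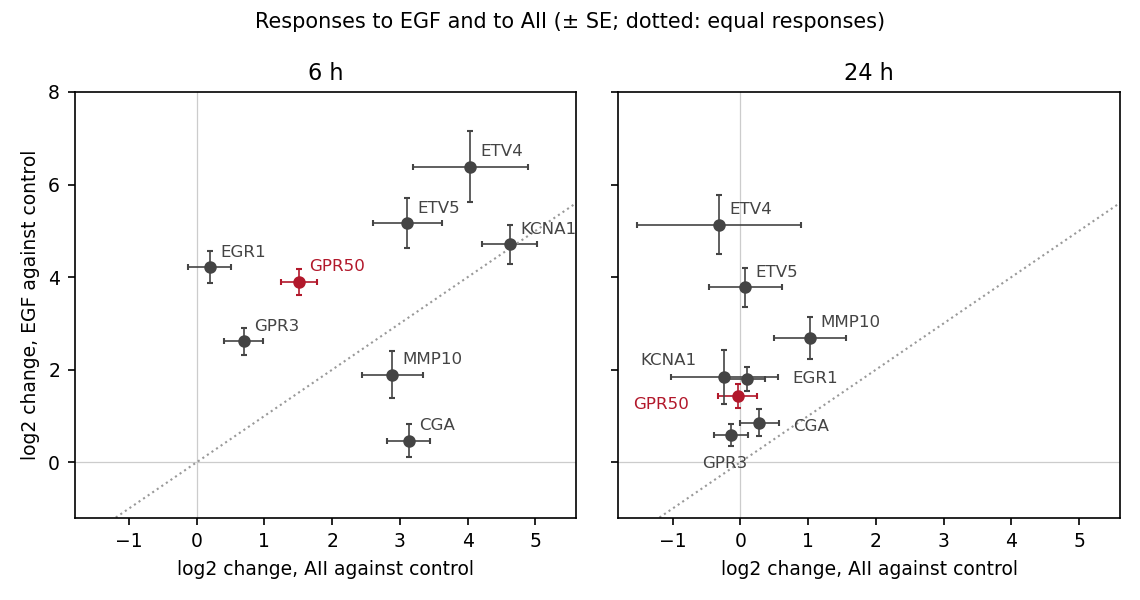
Log2 change with EGF against control (vertical axis) over log2 change with AII against control (horizontal axis) at 6 h and 24 h, for GPR50 (red) and 7 named genes, with SE bars. The dotted line marks equal responses. GPR50 lies above the line at both times, at 1.51 and 3.90 at 6 h and at -0.04 and 1.43 at 24 h.

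The sample titles pass in stretches through the 4 treatments at 1 time, here called title runs. Labels do not call them batches. Within title runs the direction of the EGF response held each time it could be computed. EGF minus control was 3.59 and 4.31 on the log2 scale in the 2 runs of 6 h, and 1.83, 1.53, 0.982 and 1.24 in the 4 runs of 24 h. EGF minus AII was 2.17 and 2.69 at 6 h and 1.42, 2.38, 1.77 and 0.864 at 24 h. AII + EGF minus AII was 3.47, 3.01 and 3.41 at 6 h and 1.59, 2.86, 1.44 and 0.13 at 24 h, so the last run of 24 h showed almost no difference. AII minus control was 1.42 and 1.62 at 6 h, and at 24 h 0.411, -0.843, -0.787 and 0.374, which differ in sign. AII + EGF minus EGF was 0.838 and 0.72 at 6 h, and 0.165, 0.485, -0.331 and -0.735 at 24 h. With the title run as a block, the adjusted p at 24 h was 1.68e-05 for EGF against control and 0.000193 for EGF against AII.

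**Figure D3:**
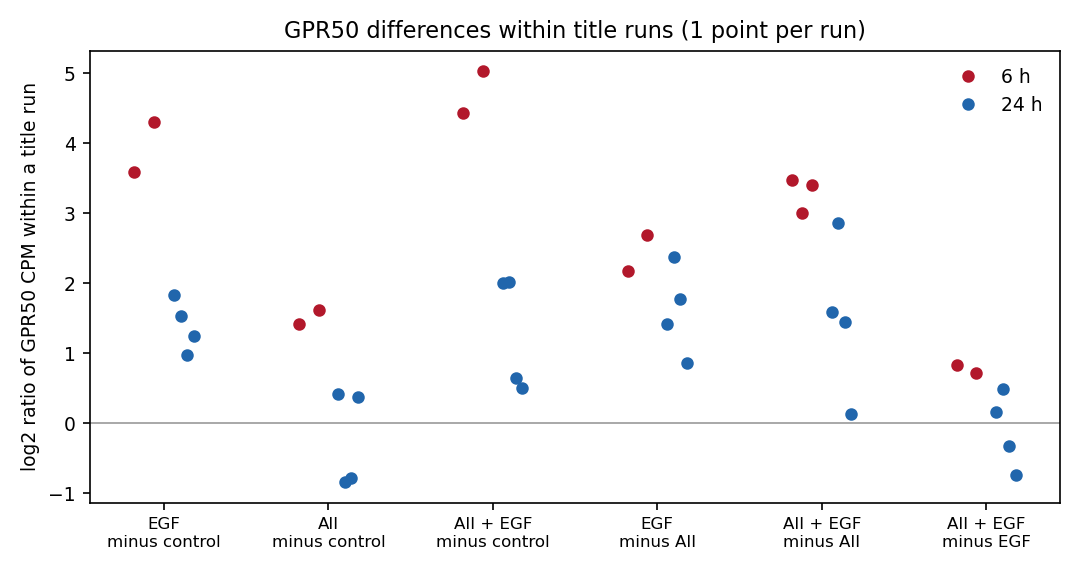
Log2 ratio of GPR50 CPM between treatments within a title run, 1 point per run, at 6 h (red) and 24 h (blue), for 6 pairs of treatments. The 4 points of EGF minus control at 24 h lie between 0.982 and 1.83, while those of AII minus control lie on both sides of 0.

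GPR50 was lower at 24 h than at 6 h in all treatments. The log2 change was -4.06 ± 0.221 under AII + EGF, -3.33 ± 0.244 under EGF, -2.41 ± 0.258 under AII and -0.86 ± 0.281 in control. Under AII + EGF this is a 16.7-fold difference and under AII a 5.31-fold one. The title runs do not mix the times, so time and run cannot be told apart. The difference of AII + EGF from AII changed by -1.65 ± 0.346 on the log2 scale from 6 h to 24 h, a value that cancels any shift common to both groups of a time. With all 48 libraries it changed by -0.76.

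Other genes of the melatonin system stayed low. MTNR1A, which encodes the MT1 receptor, had 8 to 27 counts and a log2 change of 0.18 ± 0.306 with EGF and 0.58 ± 0.272 with AII at 6 h, neither past the threshold. AANAT, the enzyme that acetylates serotonin on the way to melatonin, had 1 to 12 counts. MTNR1B, the gene of MT2, had at most 1 count and ASMT, the last enzyme of the synthesis, at most 4, and neither was tested. In none of the comparisons with control did MTNR1A or AANAT reach an adjusted p of 0.01.

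All 7 genes of a list of reported GPR50 partners and genes related to them were tested. TGFBR2, the type II TGF-beta receptor, was called higher with AII + EGF at 6 h against control (1.03 ± 0.084, adjusted p = 2.1e-12) and against AII (0.73 ± 0.0783, adjusted p = 3.1e-09). It was 1 of the 7 in both comparisons, where 6.45% and 4.21% of all genes were called higher. TGFBR1, the type I receptor that GPR50 binds, reached an adjusted p under 0.01 with AII + EGF, at 0.33 ± 0.0993 at 6 h and -0.39 ± 0.0814 at 24 h, both under 1.5-fold. KAT5, an acetyltransferase also known as TIP60, had -0.51 ± 0.116 with AII + EGF at 6 h (adjusted p = 0.000638). In this comparison 23.4% of all genes reached an adjusted p under 0.01. The median log2 change of the 7 genes with AII + EGF at 6 h was 0.1, beside -0.032 over all genes.

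Of 64 other class A orphan receptors listed, 25 were tested. GPR3, a receptor that raises cyclic AMP without an added ligand, and GPR63 were called higher with AII + EGF at 6 h, 2 of 25 in a comparison where 6.45% of all genes were. GPR3 had 0.739, 1.23, 4.63 and 17.3 CPM on average in control, AII, EGF and AII + EGF at 6 h, and 1.05, 0.946, 1.58 and 1.87 CPM at 24 h. Its log2 change was 2.61 ± 0.286 with EGF and 4.51 ± 0.277 with AII + EGF (adjusted p = 1.25e-15). GPR63 changed by 0.61 ± 0.167 with AII + EGF (adjusted p = 0.00395). No other listed orphan receptor was called in the comparisons with control or with AII. GPR50 itself was no call at 24 h either. By adjusted p under 0.01 alone, 5 of the 25 passed with AII + EGF against control at 24 h, 4 higher and 1 lower, beside 10.4% of all genes. Among them were GPR182 (2.55 ± 0.46, edgeR adjusted p = 0.000109) and GPR3 (0.838 ± 0.222, adjusted p = 0.00624). With EGF against control at 24 h 0 of the 25 passed, beside 0.586% of all genes.

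The list of 10 genes linked to ERK, chosen with earlier results known, holds transcription factors and feedback inhibitors of the pathway. At 6 h 7 of the 10 were called higher with EGF, 2 with AII (ETV5 and the Ras-ERK inhibitor SPRED2) and 7 with AII + EGF, where 1.62%, 0.459% and 6.45% of all genes were. At 24 h EGR1, ETV5 and SPRED2 were called higher with EGF (0.163% of all genes), and these and ETV4 under AII + EGF (1.7%). By adjusted p under 0.01 alone, 3 of the 10 passed with AII at 6 h (0.922% of all genes). At 24 h 5 passed with EGF (0.586%) and 8 with AII + EGF (10.4%). ETV4 passed with EGF at 24 h (edgeR adjusted p = 6.62e-06) and with AII at 6 h (4.04 ± 0.849, adjusted p = 0.00434). It was not called there, as its means of 2.87 and 1.3 CPM lay under 5 CPM. The EGF response of GPR50 went from 3.90 at 6 h to 1.43 at 24 h on the log2 scale. That of EGR1, an immediate-early factor, went from 4.21 to 1.80. ETV5 went from 5.17 to 3.78, ETV4 from 6.39 to 5.13, the ERK phosphatase gene DUSP6 from 1.95 to 1.05 and the AP-1 gene FOSL1 from 1.44 to -0.38. These differences between times were not tested for single genes.

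A further 3 genes, chosen as responsive to AII with earlier results known, showed other balances of the 2 responses. CGA, the alpha subunit of glycoprotein hormones, changed by 3.13 ± 0.314 with AII and 0.47 ± 0.358 with EGF at 6 h (log2), the reverse of GPR50. KCNA1, a voltage-gated potassium channel gene, changed by 4.62 ± 0.402 and 4.71 ± 0.418. MMP10, the stromelysin-2 gene, changed by 2.89 ± 0.45 with AII and 1.89 ± 0.509 with EGF, the latter with an adjusted p of 0.0162.

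Of the 5 nearest protein-coding genes on each side of GPR50 on chromosome X, 6 were tested. The nearest, HMGB3, a chromatin protein gene at chrX:150980507-150990771, starts and ends before GPR50, at a distance of 186 kb, and was not called in any comparison with control. MAMLD1, at 662 kb, was called higher with EGF at 6 h (0.90 ± 0.139, adjusted p = 1.96e-05) and with AII + EGF (1.37 ± 0.131, adjusted p = 1.02e-10). It was 1 of the 6 called higher in each case, beside 1.62% and 6.45% of all genes. CD99L2, at 278 kb, was called lower with AII + EGF (-0.78 ± 0.102, adjusted p = 1.15e-07), as were 5.53% of all genes in this direction. Neither passed the threshold at 24 h. With AII + EGF against control at 24 h, HMGB3 (-0.42 ± 0.0972, adjusted p = 0.00209) and MTMR1 (-0.27 ± 0.0674, adjusted p = 0.00427) reached an adjusted p under 0.01 without a change of 1.5-fold, where 10.4% of all genes did. PRRG3, at 512 kb on the other side, had 0 counts, and PASD1, FATE1 and CNGA2 had at most 4.

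The genes whose pattern was most like that of GPR50 were found by Pearson correlation of log2(CPM + 1) over the 38 libraries, among 15155 genes with a mean of at least 1 CPM. The libraries share their groups, so the correlation describes the pattern over groups and has no p. CCNA1, the gene of cyclin A1, came first with r = 0.971. KC877982-1 and ZCCHC12 followed with 0.962, then CPLX1 (0.96), the gene of complexin 1 in synaptic vesicle release, MMP24 (0.956), a membrane-bound metalloproteinase gene, and ICOSLG (0.954), the gene of a T cell costimulatory ligand. The last of the 10 were SPRED1 (0.947), WT1 (0.944), a zinc finger transcription factor gene, KCTD12 (0.943), whose product binds GABA-B receptors, and TNC (0.943), the gene of the matrix protein tenascin-C. The median r over all these genes was 0.0422, and 71 genes had r of at least 0.9. Of the 10 genes, 9 stayed among the highest 10 with log2(CPM + 0.1), 8 with all 48 libraries, and 2 each with Spearman correlation or over the 8 group means. Within the 22 libraries of 24 h alone, r was highest for CCNA1 (0.911) and lowest for KC877982-1 (0.475), with 0.755 for ZCCHC12 and 0.579 for CPLX1.

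CCNA1 had 0.71, 1.43, 7.45 and 11.8 CPM on average in control, AII, EGF and AII + EGF at 6 h, and 0.394, 0.52, 1.23 and 1.77 CPM at 24 h. At 24 h its log2 change was 1.60 with EGF and 0.40 with AII. CCNA1 was picked by its correlation with GPR50 over libraries that include those of 24 h. Its likeness to GPR50 at 24 h is therefore largely part of that choice, and no p is given. CPLX1 had 3.77, 6.53, 28.1 and 36.3 CPM at 6 h, and with EGF at 24 h its log2 change was 0.02 (adjusted p = 0.983).

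**Figure D4:**
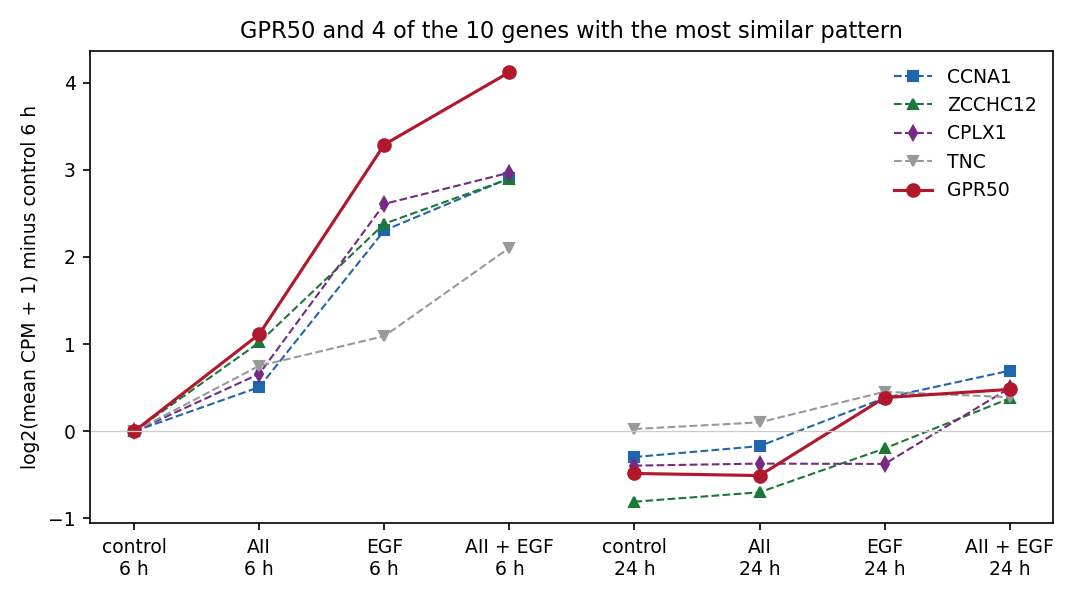
Difference of log2(mean CPM + 1) from control at 6 h (vertical axis) over the 8 groups of treatment and time, for GPR50 (solid red) and 4 of the 10 genes with the most similar pattern (dashed). Lines join the groups of 1 time. All 5 genes are highest under AII + EGF at 6 h, and at 24 h all lie within about 1 log2 unit of control at 6 h.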

How the data were processed

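The authors sequenced poly(A) RNA of a HEK293 clone with stable AT1R expression. Per the labels, reads were mapped to hg38 with HISAT2 2.1.0 and assigned with featureCounts. The deposited values are raw counts per Ensembl gene, without normalisation. No column of counts lay outside the 48 libraries. Groups were read from the labels. Replicate numbers follow the order of deposition.

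For 38 libraries the counts went into edgeR 4.0.16 under R 4.3.3 (filterByExpr by group, 19626 genes kept, TMM factors, 1 quasi-likelihood fit over 8 groups without covariates, Benjamini-Hochberg adjustment over the genes tested). Named genes were GPR50, the 10 most correlated genes, the receptors of both stimuli, chromosome neighbours and fixed lists. GPR50 and the lists were chosen with earlier results of these data known. Single values were also compared with exact two-sided permutation tests on log2(CPM + 1). The fit was tested on simulated data, with changes placed only in genes of higher counts than GPR50 had in control at 24 h. It therefore does not cover a gene as low as GPR50 at 24 h. The 38 libraries had totals of 17.8 to 30 M counts. Poisson intervals of counts cover counting error only, while intervals of log2 changes include the spread between libraries.

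Alternatives were all 48, 40 or 42 libraries, RLE factors, library totals, no filter and the study's filter on low counts, title runs as a block, only the groups compared, DESeq2 1.42.0, a pseudocount of 0.1 and leaving out each library. The difference of the EGF response under AII between times was added after seeing the data. Protein sequences were not analysed here.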

Additional observations from a re-analysis of the deposited data

Results flagged for a closer look

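In control at 24 h, replicate 5 had 1.57 CPM of GPR50, farther from the other 5 libraries than Dixon's test allows at the 95% level, which chance exceeds in about 1 in 20 groups. Without it, EGF against control at 24 h was 1.63 on the log2 scale.

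The response of GPR50 to EGF on top of AII changed by -1.65 on the log2 scale (24 h minus 6 h). The value is the contrast of the differences in the edgeR fit and is given as a description. It uses 6 h libraries, whose values were known when the gene was chosen. Its place in this list is therefore no test of GPR50, and no p is given. With all 48 libraries the change was -0.76.

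In the libraries left out, GPR50 reached 30.8, 11.7 and 11.4 CPM in EGF 6 h replicates 1, 2 and 6, 31.6 CPM in AII + EGF 6 h replicate 4 and 1.76 CPM in EGF 24 h replicate 2. Replicate 1 of EGF 6 h is near-identical to AII + EGF 6 h replicate 4, EGF 6 h replicates 2 and 6 are near-identical to each other, and EGF 24 h replicate 2 pairs with control 6 h replicate 1 (1.63 CPM). Replicate 6 of the libraries labelled AII 6 h had 20.4 CPM. Replicate 6 of those labelled AII + EGF 6 h had 3.68 CPM. Both lay outside the range of the used libraries of their labels.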

How the results depend on the processing

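Of 402 recomputed values of GPR50, 374 stayed on their side of the threshold or moved by less than the spread, 21 no longer passed an adjusted p of 0.01 and 7 moved. The tally includes contrasts with 6 h libraries, such as AII + EGF against AII at 6 h, set against the same threshold. GPR50 was chosen by 6 h values, so their place in the tally is no test of it. Among the 21 is the difference between times, with all 48 and with 40 libraries. No value past the threshold changed direction, while AII against control at 24 h, near 0, lay between -0.13 and 0.17 with each library left out. With all 48 libraries, the log2 values at 6 h were 2.20 for AII against control, 1.54 for EGF against AII and -1.46 for the interaction. Those at 24 h were 1.34 for EGF against control (adjusted p = 0.184), 1.56 for AII + EGF against control (0.0109), 1.31 for EGF against AII (0.589) and 1.53 for AII + EGF against AII (0.0174), and the difference between times was -0.76. With 40 libraries, which keep the 2 of doubtful label, the 6 h values were 2.13, 1.77 and -1.57 in that order and 0.56 for AII + EGF against EGF. The 24 h values were 1.43 (0.151), 1.56 (0.0149), 1.47 (0.481) and 1.59 (0.0339), and the difference between times was -0.74. With 42 libraries EGF against AII at 24 h was 1.47 (0.0164). With only the compared groups in the fit, EGF against control at 24 h was 1.42 (0.059) and EGF against AII 1.47 (0.225). Leaving out each library gave 1.30 to 1.57 for EGF against AII at 24 h, with 8 of 10 fits above the threshold, and moved no other GPR50 result at 24 h across the threshold. The causes were not tested. Genes called with EGF at 24 h numbered 48, from 2 to 137 over the alternatives, those in EGF against AII 5 at 24 h (0 to 34) and 132 at 6 h (13 to 250), those with EGF at 6 h 381 (121 to 604), and those in AII + EGF against AII 1492 at 6 h (302 to 2092) and 285 at 24 h (134 to 539). AII + EGF against control at 24 h gave 569 (344 to 1113). No paired analysis was possible because the labels carry no replicate numbers, other than the block by title run within each time. With the title run as a block, contrasts between times could not be fitted. At 24 h GPR50 had 10 to 73 counts. How much of the limit on what can be seen comes from counting error and how much from the spread between libraries was not tested.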
